A study of Mus musculus with 6 samples.

Results

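Haptoglobin, the 3 fibrinogen chains, a pair of serpins, the complement proteins C3 and factor B, and the transcription factors C/EBPβ and C/EBPδ were followed in human lung tumours grown in mice and treated with an ALK inhibitor. The genes were taken by symbol: every probe set annotated to HP, FGA, FGB, FGG, SERPINA1, SERPINA3, C3, CFB, CEBPB or CEBPD alone, without regard to its values. This gave 18 probe sets for 10 genes, out of 54675 probe sets and 19775 genes on the array. The 10 genes themselves were chosen with earlier results of these data known. The tumours came from NCI-H2228, an established human lung adenocarcinoma cell line with an EML4-ALK fusion, which had been implanted under the skin of SCID mice, a strain without T and B cells. The mice were dosed by mouth with vehicle alone or with CH5424802 (alectinib), an inhibitor of the ALK kinase, at 4 or 20 mg/kg, and tumours were lysed after 6 h. There are 3 groups of 2 arrays, and all 6 arrays hold tumours of the same cell line. Nothing in the labels says that the arrays of a group are separate animals. The p-values therefore set differences between groups only against the spread of these arrays within a group, and that spread may be technical.

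Acute phase proteins are plasma proteins whose output changes in inflammation. The liver makes most of them, and airway epithelium and lung tumours make several, including α1-antitrypsin, haptoglobin and C3. IL-6 and related cytokines act on their genes through STAT3 and through C/EBPβ and C/EBPδ, while IL-1 and TNF act through NF-kB and C/EBP factors.

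The measure is the intensity of a probe set, summarised by the authors with GCRMA and converted here to log2. A gene is represented by its brightest probe set. Intensities cannot be set against each other between probe sets, so only differences between arrays are compared. The lowest value on every array was log2 2.19, and a probe set within 1 log2 unit of it is called near the floor. A gene was tested where its mean log2 value was at least 4, which 10271 genes met, all 10 described here among them. Of the 18 probe sets 12 met this limit and 6 did not, and 4 of those 6 were near the floor in every array (211428_at for SERPINA1, 205649_s_at and 231671_at for FGA and 211920_at for CFB). Changes were tested with limma, with p-values adjusted over all tested genes by the Benjamini-Hochberg method and called at 0.05. Of the brightest probe sets 7 of 10 carry the suffix _s_at, given to sets whose probes match several transcripts. For HP these could include HPR, a near-identical neighbour, so the HP signal cannot be assigned to HP alone.

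Arrays of a group correlated at r between 0.992 and 0.997 across the tested genes, which are not independent replicates. DUSP6, a phosphatase that ERK signalling induces, served as a check of the treatment, at 13346 and 12806 in vehicle tumours, 11041 and 8490 in 4 mg/kg tumours and 312 and 279 in 20 mg/kg tumours. A control for 18S ribosomal RNA on the array read 1713 and 4058 in vehicle tumours, 489 and 374 in 4 mg/kg tumours and 573 and 637 in 20 mg/kg tumours. It was lower in all treated arrays than in both vehicle arrays, as most of the 10 genes were, and its part in their values was not tested. In bulk tissue, fewer cells that make a transcript and less of it in each cell cannot be told apart.

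The lung and epithelial markers of the label were largely present. Of 13 markers on the array 11 were tested, with NKX2-1, the lineage factor of lung adenocarcinoma, between log2 11.55 and 11.74 in the 6 arrays, while the surfactant genes SFTPC and SFTPD were near the floor throughout. The summed intensity of the 13 was 94725 and 102423 with vehicle, 98806 and 100220 for 4 mg/kg and 89689 and 94205 for 20 mg/kg. Single markers moved within this sum. For 20 mg/kg KRT7 had 2090 and 3156, against 4357 and 5433 with vehicle. KRT8 had 2542 and 2830 against 4754 and 5092, and KRT18 4355 and 5822 against 14435 and 14820. EPCAM was higher, at 18393 and 21461 against 13258 and 14899. At this dose 4 of the 11 had an unadjusted p under 0.05 in limma, as did 24.2% of all tested genes. Hepatocyte markers were nearly silent: 7 of 10, albumin (ALB) among them, were near the floor in all arrays, and the summed intensity of the 10 was 102 and 96.2 with vehicle, 106 and 91.5 for 4 mg/kg and 101 in both arrays for 20 mg/kg. Of 8 macrophage and leukocyte markers 4 were near the floor, including PTPRC, CD163 and CSF1R, and the sum of the 8 was 134 and 137 with vehicle, 134 in both arrays for 4 mg/kg and 132 and 133 for 20 mg/kg. Of 6 neutrophil markers 5 were near the floor, MPO and ELANE among them, with sums of 94.5 and 136 with vehicle, 95.3 and 93.1 for 4 mg/kg and 94.5 in both arrays for 20 mg/kg. The 10 fibroblast markers summed to 37610 and 40487 with vehicle, 38377 and 37199 for 4 mg/kg and 36569 and 41019 for 20 mg/kg, and 4 of them were near the floor. COL1A1 alone held most of each sum, at 33390 and 35344 with vehicle, 34030 and 32317 for 4 mg/kg and 31585 and 36324 for 20 mg/kg. The labels give mouse, the host, as the organism, and how mouse transcripts read on these human probes was not measured.

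Haptoglobin, which binds free haemoglobin in plasma, had intensities of 2293 and 1860 in vehicle tumours, 564 and 653 in 4 mg/kg tumours and 653 and 632 in 20 mg/kg tumours. All treated arrays were far below both vehicle arrays, and the arrays of the 2 doses overlapped, 653 being the value of 1 array at each dose. HP fell 3.22-fold at 20 mg/kg against vehicle (log2 change -1.69, SE 0.14, 95% interval -2.08 to -1.29, adjusted p = 0.0258, limma). At 4 mg/kg it was 3.40-fold lower (log2 -1.77, SE 0.14), with an adjusted p of 0.0892, so it did not pass although its p-value ranked 37 of 10271. Without vehicle replicate 1 it did pass (adjusted p = 0.0455). Between 20 and 4 mg/kg HP differed by log2 0.08, with a 95% interval from -0.31 to 0.48 (adjusted p = 0.876). The change at 20 mg/kg lay between -1.84 and -1.53 in the alternatives that gave HP a value. HP has only 1 probe set, so none of these read it by another. Its call was lost without either 20 mg/kg array, either 4 mg/kg array or vehicle replicate 2 (adjusted p from 0.0614 to 0.139) and with no filter on low values (0.0919).

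Fibrinogen, the precursor of fibrin clots, is built from the chains encoded by FGA, FGB and FGG, which lie next to each other in the genome. FGG had 5339 and 5973 in vehicle tumours, 2297 and 3351 in 4 mg/kg tumours and 4209 and 3410 in 20 mg/kg tumours. FGB had 198 and 143 in vehicle tumours, 104 and 83.7 in 4 mg/kg tumours and 101 and 104 in 20 mg/kg tumours. FGA had log2 values of 6.13 and 6.28 in vehicle tumours, log2 5.25 and 5.64 in 4 mg/kg tumours and log2 5.64 in both 20 mg/kg tumours. For each chain all treated arrays lay below both vehicle arrays, and none passed the test.

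Against vehicle, the log2 changes of the 3 chains at 4 mg/kg were -1.03 for FGG (SE 0.24, adjusted p = 0.194), -0.85 for FGB (SE 0.21, adjusted p = 0.209) and -0.76 for FGA (SE 0.16, adjusted p = 0.175). The higher dose gave -0.58 for FGG (adjusted p = 0.263), -0.72 for FGB (adjusted p = 0.159) and -0.56 for FGA (adjusted p = 0.148). The intervals of the chains overlapped widely, such as -1.70 to -0.35 for FGG and -1.21 to -0.31 for FGA at 4 mg/kg. Both 20 mg/kg arrays of FGG were above both 4 mg/kg arrays (log2 difference 0.45, 95% interval -0.23 to 1.13, adjusted p = 0.591), and leaving out a 4 mg/kg array moved the difference to 0.18 (replicate 1) or 0.72 (replicate 2). The second probe set of FGB, 204988_at, was under the limit for testing, with 14.5 and 10.1 in vehicle tumours, 7.69 and 9.16 in 4 mg/kg tumours and 8.78 and 9.33 in 20 mg/kg tumours. Its treated arrays again lay below the vehicle arrays, close to the floor.

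**Figure D1:**
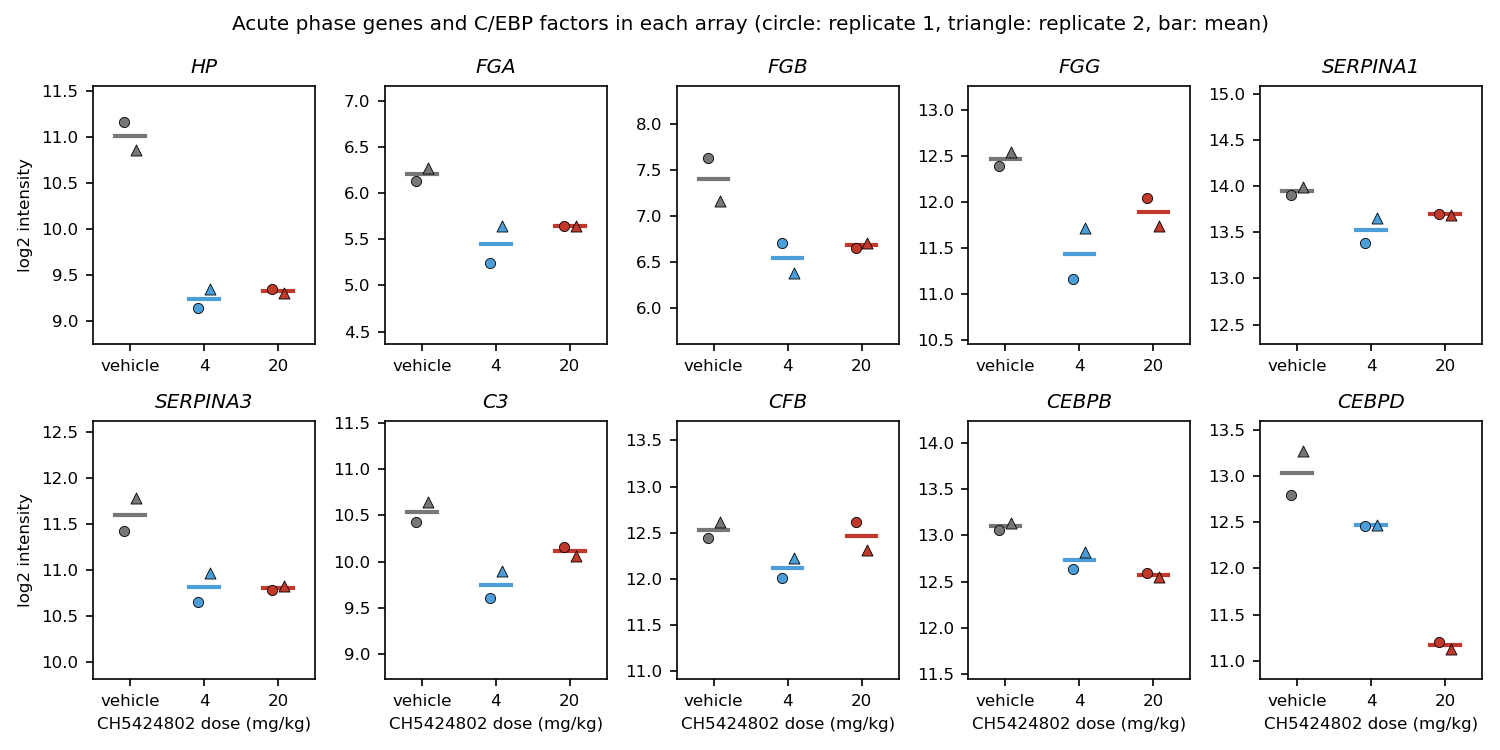
log2 intensity of the brightest probe set of each of the 10 genes (vertical axis, each panel spanning the same range of log2 units) by dose of CH5424802 (horizontal axis, mg/kg), with circles for replicate 1, triangles for replicate 2 and bars for the mean of the 2 arrays. HP was about as low at 4 as at 20 mg/kg, CEBPD was lowest at 20 mg/kg, and CFB at 20 mg/kg overlapped vehicle.

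SERPINA1 encodes α1-antitrypsin, the main inhibitor of neutrophil elastase in the lung. Its brightest probe set, 211429_s_at, read 15346 and 16265 in vehicle tumours, 10686 and 12932 in 4 mg/kg tumours and 13309 and 13217 in 20 mg/kg tumours. The log2 change was -0.43 at 4 mg/kg (SE 0.11, adjusted p = 0.212) and -0.25 at 20 mg/kg (SE 0.11, adjusted p = 0.278), neither past the test. A second bright set, 202833_s_at, gave -0.54 at 4 mg/kg and -0.40 at 20 mg/kg, with no overlap with vehicle in either set. Another set, 230318_at, held 76.3 in 5 arrays and 105 in vehicle replicate 2, so its log2 change of -0.23 at each dose rests on that array. The change was 0 without vehicle replicate 2, and without vehicle replicate 1 it was -0.45 at each dose. With vehicle replicate 1 left out, the treated arrays were all equal, so no spread within a group was left to test against.

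SERPINA3 encodes α1-antichymotrypsin, which inhibits cathepsin G. It had 2738 and 3513 in vehicle tumours, 1614 and 2002 in 4 mg/kg tumours and 1762 and 1816 in 20 mg/kg tumours. The treated arrays lay below the vehicle arrays and the doses overlapped. The log2 change was -0.79 at both doses against vehicle (SE 0.18 each), with adjusted p = 0.186 at 4 mg/kg and 0.104 at 20 mg/kg. The difference between 20 and 4 mg/kg was log2 -0.01, with a 95% interval from -0.51 to 0.50.

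Complement C3, on which the complement pathways converge, had 1379 and 1603 in vehicle tumours, 779 and 953 in 4 mg/kg tumours and 1144 and 1069 in 20 mg/kg tumours. The 3 groups did not overlap, with 20 mg/kg in the middle. Its log2 change was -0.79 at 4 mg/kg (SE 0.14, adjusted p = 0.166) and -0.43 at 20 mg/kg (SE 0.14, adjusted p = 0.186). CFB encodes factor B, the protease of the alternative pathway that joins C3b. It had 5574 and 6275 in vehicle tumours, 4122 and 4773 in 4 mg/kg tumours and 6275 and 5089 in 20 mg/kg tumours. The 4 mg/kg arrays lay below both vehicle arrays, while 20 mg/kg replicate 1 held the same value as vehicle replicate 2. Its log2 change was -0.42 at 4 mg/kg (SE 0.15, adjusted p = 0.307) and -0.07 at 20 mg/kg (SE 0.15, 95% interval -0.50 to 0.36, adjusted p = 0.872), and at 20 mg/kg it turned to 0.085 without 20 mg/kg replicate 2 and to 0.020 without vehicle replicate 2. Between 20 and 4 mg/kg the differences were log2 0.36 for C3 (95% interval -0.04 to 0.76) and 0.35 for CFB (-0.08 to 0.78), neither past the test (adjusted p = 0.42 and 0.486). The difference of C3 was 0.21 without 4 mg/kg replicate 1, and that of CFB 0.20 without 20 mg/kg replicate 1.

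CEBPD, which encodes a basic leucine zipper factor and is activated by STAT3 in the acute phase response, passed the test at 20 mg/kg, as HP did. CEBPD had 7131 and 9914 in vehicle tumours, 5634 and 5690 in 4 mg/kg tumours and 2361 and 2234 in 20 mg/kg tumours. The 3 groups did not overlap and followed the dose. CEBPD fell 3.66-fold at 20 mg/kg against vehicle (log2 -1.87, SE 0.18, 95% interval -2.38 to -1.36, adjusted p = 0.0326). For CEBPD the log2 change at 4 mg/kg was -0.57 (SE 0.18, adjusted p = 0.26). It was -0.33 without vehicle replicate 2 and, past the test, -0.81 without vehicle replicate 1 (adjusted p = 0.0394).

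Between 20 and 4 mg/kg CEBPD was 2.47-fold lower (log2 -1.30, SE 0.18, 95% interval -1.81 to -0.79, adjusted p = 0.117). Its p-value of 0.00243 ranked 214 of 10271 in that comparison, in which limma called 38 genes. The call at 20 mg/kg against vehicle was lost without either 20 mg/kg array or either 4 mg/kg array, with adjusted p from 0.0932 to 0.159, and with no filter on low values (0.109), while the change lay between -2.11 and -1.46 in the alternatives. A second probe set, 213006_at, was under the limit for testing and near the floor in 4 arrays, with 10.9 and 12.5 in vehicle tumours, 8.23 and 8.28 in 4 mg/kg tumours and 5.10 and 6.23 in 20 mg/kg tumours. It followed the same order of the groups.

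CEBPB, whose protein C/EBPβ pairs with C/EBPδ on shared sites, had 8557 and 8977 in vehicle tumours, 6380 and 7234 in 4 mg/kg tumours and 6183 and 6012 in 20 mg/kg tumours. The groups did not overlap and followed the dose, over a narrow range. Its log2 change was -0.52 at 20 mg/kg (SE 0.07, 95% interval -0.74 to -0.31), with an adjusted p of 0.0554 that just missed the threshold. At 4 mg/kg it was -0.37 (SE 0.07, adjusted p = 0.174), and between 20 and 4 mg/kg -0.16 (95% interval -0.37 to 0.06, adjusted p = 0.539).

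**Figure D2:**
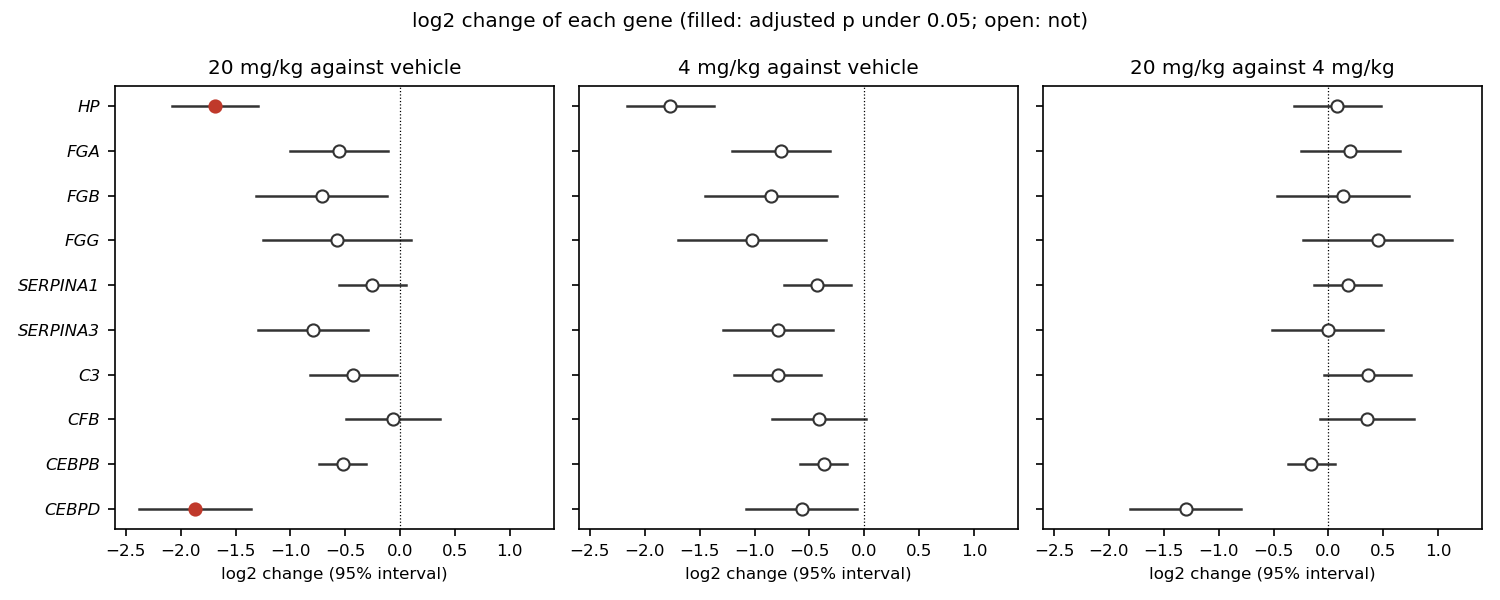
log2 change of each gene (horizontal axis) with its unadjusted 95% interval, for the higher dose and the lower dose, each against vehicle, and for the higher against the lower dose. Filled points passed the adjusted threshold of 0.05, which HP and CEBPD did at 20 mg/kg against vehicle, and no gene did in the other comparisons.

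At 20 mg/kg against vehicle 2 of the 10 genes passed, HP and CEBPD, both lower. Over all tested genes 4.33% passed, 2.07% as lower. In 9 of the 10 genes both 20 mg/kg arrays lay below both vehicle arrays, CFB being the exception, and 25.9% of all tested genes were placed so. An unadjusted p under 0.05 was found in 7 of the 10, all lower, and in 11.5% of all tested genes in that direction. The median log2 change of the 10 was -0.57, and it was 0 over all tested genes. When all 16900 probe sets past the limit were tested singly, HP (adjusted p = 0.0306) and CEBPD (adjusted p = 0.0387) passed and the other 10 sets of these genes did not, with 3.19% of all probe sets called.

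Of the 10 genes none passed at 4 mg/kg against vehicle in limma, where 0.0584% of tested genes did. In all 10 genes both 4 mg/kg arrays lay below both vehicle arrays, while 14.8% of all tested genes were placed so. An unadjusted p under 0.05 was found in 9 of the 10, all lower, against 4.76% of tested genes that were lower at that level. CFB was the other gene (unadjusted p = 0.0549, limma). The median log2 change was -0.77, ranging from -1.77 for HP to -0.37 for CEBPB, and it was 0 over all tested genes.

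Between 20 and 4 mg/kg none of the 10 passed in limma, where 0.37% of tested genes did, and 1 of them, CEBPD, had an unadjusted p under 0.05, lower, as 8.79% of tested genes did. Both 20 mg/kg arrays lay below both 4 mg/kg arrays for CEBPD and CEBPB, a placement that 22.8% of tested genes had. They lay above them for FGG, SERPINA1, C3 and CFB, as for 13.6% of tested genes. The median log2 difference of the 10 was 0.15. Both doses are compared with the same vehicle arrays, so their changes share the error of these arrays.

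**Figure D3:**
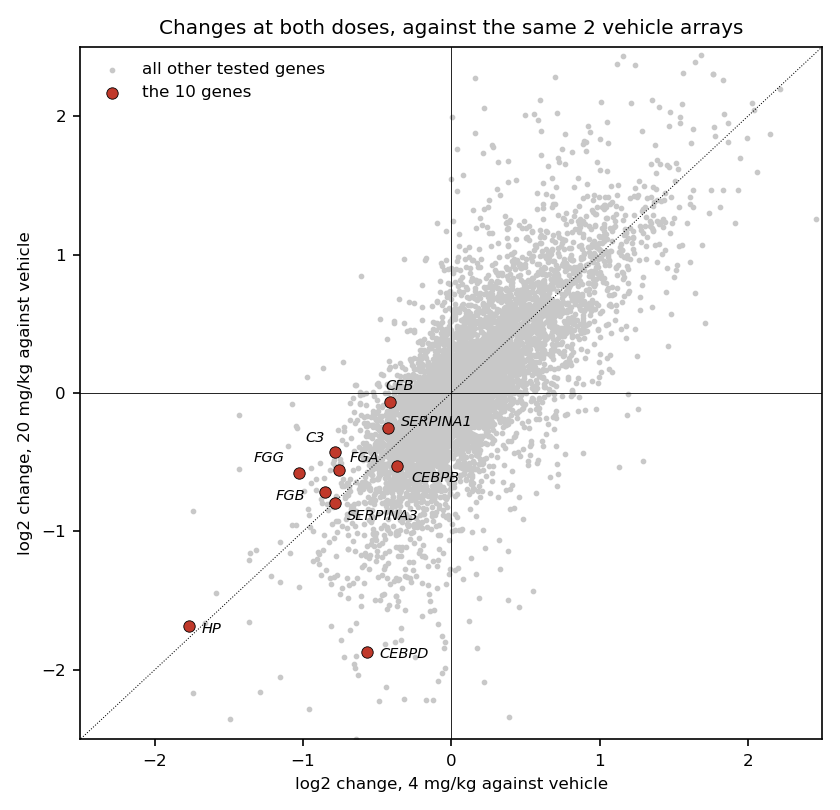
log2 change at 20 mg/kg against vehicle (vertical axis) and at 4 mg/kg against vehicle (horizontal axis) for the 10 genes (red) and all other tested genes (grey), of which 27 lie outside the axes, with the diagonal dotted. Both axes use the same vehicle arrays, and no correlation is drawn from the cloud. HP lies near the diagonal at -1.77 and -1.69, CEBPD well below it at -0.57 and -1.87, and FGG, C3 and CFB above it.

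Single arrays stood out among the 10 genes. The lowest of the 6 values was that of 4 mg/kg replicate 1 for 7 of the 10 (HP, FGA, FGG, SERPINA1, SERPINA3, C3 and CFB), and for 20.5% of all tested genes with a unique lowest array. Vehicle replicate 2 held the highest value for 7 of the 10, as for 28.6% of tested genes with a unique highest array. Equal values in different arrays (within 1e-06 log2 units) occurred in 4 of the 10 genes, HP, FGA, FGB and CFB, and in 47.9% of tested genes.

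Described over the 6 arrays, which share their dose groups, the 45 pairs among the 10 genes had Pearson correlations with a median of 0.82, ranging from -0.01 for CFB with CEBPD to 0.99 for FGA with SERPINA1. FGG and C3 had r = 0.99 and SERPINA1 and FGG 0.98. With the secreted proteins CEBPD had r from -0.01 with CFB to 0.73 with SERPINA3, at 0.67 with HP, 0.52 with FGA, 0.50 with FGB, 0.38 with SERPINA1, 0.36 with C3 and 0.35 with FGG. The pairs among the secreted proteins ranged from 0.41 for FGB with CFB upwards, so the ranges overlap. CEBPD and CEBPB had r = 0.88. CEBPB had r = 0.94 with SERPINA3 and 0.91 with HP.

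Among the tested genes whose values spanned at least 1 log2 unit, the 5 most like HP over the 6 arrays were ANGPTL4, an inhibitor of lipoprotein lipase (r = 0.99), ADM, the vasodilator peptide adrenomedullin (0.98), the glucose transporter SLC2A3 (0.98), the proteoglycan VCAN (0.97) and SERPINB4 (0.96). At 4 mg/kg against vehicle their log2 changes were -1.09 for ANGPTL4, -1.36 for ADM, -1.66 for SLC2A3, -0.86 for VCAN and -1.37 for SERPINB4. The changes at 20 mg/kg were -1.16 for ANGPTL4, -1.21 for ADM, -1.66 for SLC2A3, -1.03 for VCAN and -1.66 for SERPINB4. Since these genes were chosen for their likeness to HP, their changes are given as a description, with no test. Most like FGB were SLCO4A1 (r = 0.93), HP (0.92), ANGPTL4 (0.91), SOCS1 (0.88) and SLC2A3 (0.88).

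The 5 genes most like CEBPD were the tubulin cofactor TBCB (r = 0.996), the small MAF factor MAFF (0.995), the forkhead factor FOXQ1 (0.994), γ-tubulin TUBG1 (0.994) and thrombomodulin, THBD (0.992). Their log2 changes at 4 mg/kg were -0.34 for TBCB, -1.04 for MAFF, -0.44 for FOXQ1, -0.37 for TUBG1 and -0.65 for THBD. At 20 mg/kg they were -0.93 for TBCB, -3.17 for MAFF, -1.16 for FOXQ1, -1.46 for TUBG1 and -1.99 for THBD, again as a description. Most like CEBPB were RTL8C (r = 0.995), SOCS3 (0.992), CMTM3 (0.991), SERPINB4 (0.989) and TLR2 (0.983).

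**Figure D4:**
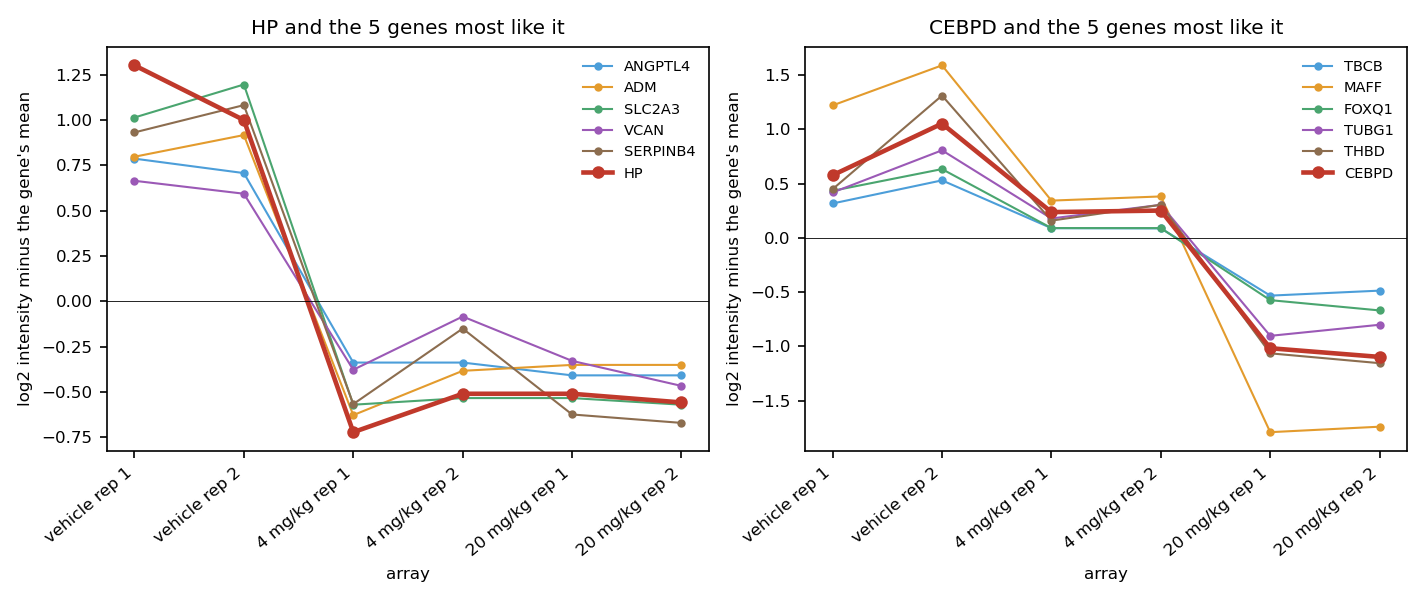
log2 intensity minus the gene's mean over the 6 arrays (vertical axis) in each array (horizontal axis) for HP and the 5 genes most like it (left) and for CEBPD and the 5 genes most like it (right). The left set is low in all 4 treated arrays and the right set is lowest in the 20 mg/kg arrays. The genes were chosen for this likeness, so the match itself is no result.

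The ligands and receptors that lead to these genes were read from lists chosen with the study's earlier results known. Of 12 tested genes of IL-6 family signalling 1 fell at 20 mg/kg, the cytokine IL6 itself, and none rose. Over all tested genes 2.07% fell at this dose. An unadjusted p under 0.05 was found for 6 of the 12, and for 24.2% of all tested genes in either direction. IL6 had 132 and 97.1 in vehicle tumours, 60.5 and 47.9 in 4 mg/kg tumours and 13.3 in both 20 mg/kg tumours, a log2 change of -3.08 at 20 mg/kg (SE 0.20, adjusted p = 0.021) and -1.07 at 4 mg/kg (adjusted p = 0.171). IL6 thus followed the dose, with no overlap between groups. Both 20 mg/kg arrays were at log2 3.74, below the limit of 4 set for a gene's mean, so the size of the fall rests on low values. The change of IL6 at 20 mg/kg lay between -3.30 and -2.14 in the alternatives that gave it a value. Its list had a median log2 change of -0.09 at 20 mg/kg and -0.08 at 4 mg/kg.

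The receptor chains IL6R, LIFR and IL6ST had higher values at 20 mg/kg, none past the test. The receptor chain OSMR went the other way, with 6375 and 5585 in vehicle tumours and 5263 and 4442 in 20 mg/kg tumours. At 4 mg/kg OSMR had 5456 and 5744. IL6R, the ligand-binding receptor of IL-6, had 220 and 380 in vehicle tumours, 387 and 487 in 4 mg/kg tumours and 1128 and 1147 in 20 mg/kg tumours, a log2 change at 20 mg/kg of 1.97 (SE 0.31, adjusted p = 0.0639). LIFR, the receptor of leukaemia inhibitory factor, had 223 and 85.6 in vehicle tumours, 436 and 550 in 4 mg/kg tumours and 1177 and 1179 in 20 mg/kg tumours, at log2 3.09 (SE 0.52, adjusted p = 0.0706). LIFR was at 1.59 with the mean of its probe sets, and at 3.78 and past the test without vehicle replicate 1 (adjusted p = 0.0257). IL6ST, the shared signalling chain gp130, was at 0.64 (adjusted p = 0.102), but at 0.24 with the mean of its probe sets and at 0.82 and past the test without vehicle replicate 1 (adjusted p = 0.041). STAT3 was at -0.22 (adjusted p = 0.335), or -0.52 by its next brightest probe set. SOCS3, the feedback inhibitor of STAT3 signalling, was at -2.66 (SE 0.46, adjusted p = 0.0748). Its size depended on the probe set, with -0.32 by the next brightest and -0.75 by the mean of all, where the mean passed the test (adjusted p = 0.0458). None of these genes passed. In limma none of the 12 passed at 4 mg/kg, where 0.0584% of all tested genes did, and 5 had an unadjusted p under 0.05, as 17% of all tested genes did in either direction.

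Of 14 tested genes of IL-1 and TNF signalling 2 fell at 20 mg/kg, where 2.07% of all tested genes fell, and none passed at 4 mg/kg in limma, where 0.0584% of all did. An unadjusted p under 0.05 was found for 5 at 20 mg/kg, against 24.2% of all tested genes, and for 1 at 4 mg/kg, against 17% of all. TNFRSF1A, the main receptor of TNF, had 2111 and 2585 in vehicle tumours, 1530 in both 4 mg/kg tumours and 1042 and 1030 in 20 mg/kg tumours, a log2 change of -1.17 at 20 mg/kg (SE 0.11, adjusted p = 0.0318). IL1RAP, the accessory chain of the IL-1 receptor, fell by 1.38 on the log2 scale at 20 mg/kg (adjusted p = 0.0318), but its next brightest probe set was higher by 0.69 (adjusted p = 0.0414), so its direction is not settled. The median of the list was -0.16 at 20 mg/kg and -0.18 at 4 mg/kg.

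Of 7 other tested genes of the C/EBP family and its partners 2 fell at 20 mg/kg, where 2.07% of all tested genes fell. Both are Tribbles pseudokinases, known for marking C/EBPα for degradation, and no other gene of the list had an unadjusted p under 0.05 (24.2% of all tested genes). TRIB2 had 1676 and 1976 in vehicle tumours, 981 and 1238 in 4 mg/kg tumours and 482 and 489 in 20 mg/kg tumours (log2 -1.91 at 20 mg/kg, SE 0.15, adjusted p = 0.0257). With its next brightest probe set it was at -1.27 (adjusted p = 0.0923). TRIB1 had 778 and 788 in vehicle tumours, 505 and 651 in 4 mg/kg tumours and 336 and 323 in 20 mg/kg tumours (log2 -1.25, SE 0.14, adjusted p = 0.0386). Both followed the dose, as CEBPD did. CEBPG was at -0.55 (adjusted p = 0.361), or 0.22 by its next brightest probe set. DDIT3, which encodes CHOP, was at 0.35 (adjusted p = 0.503), a value that rests on 20 mg/kg replicate 1: it was 0 without that array and 0.69 without 20 mg/kg replicate 2. CEBPA was under the limit for testing. The median log2 change of the 7 was -0.55 at 20 mg/kg and -0.24 at 4 mg/kg, where none passed in limma (0.0584% of all tested genes) and 3 had an unadjusted p under 0.05 (17% of all).

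Among other acute phase genes none of 13 tested passed at either dose in limma (4.33% of all tested genes at 20 mg/kg and 0.0584% at 4 mg/kg). An unadjusted p under 0.05 was found for 3 at 20 mg/kg and 2 at 4 mg/kg, against 24.2% and 17% of all tested genes. Their median log2 change was -0.08 at 20 mg/kg and -0.07 at 4 mg/kg, against -0.57 and -0.77 for the 10. Both sets were chosen with earlier results of these data known, so this difference describes and does not test. LCN2, the iron-binding lipocalin of neutrophils and epithelia, had 13655 and 15169 in vehicle tumours, 14807 and 15338 in 4 mg/kg tumours and 11346 and 11641 in 20 mg/kg tumours (log2 -0.32 at 20 mg/kg, adjusted p = 0.0861). Without vehicle replicate 1 its change was -0.40 and past the test (adjusted p = 0.0459). CP, the copper oxidase ceruloplasmin, had 10874 and 10706 in vehicle tumours, 6353 and 7791 in 4 mg/kg tumours and 11328 and 10334 in 20 mg/kg tumours. It was low only in the 4 mg/kg arrays (log2 -0.62 against vehicle, adjusted p = 0.171, and 0.62 for 20 against 4 mg/kg, adjusted p = 0.176), and its next brightest probe set gave -0.13 at 4 mg/kg against vehicle. Of the 24 genes of this list on the array 9 were near the floor throughout, and so were all 8 genes that fall in the acute phase, such as ALB and TTR.

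From a list of transcription factors that act in hepatocytes, not all of them particular to that cell type, 7 were on the array. Of these 4 were near the floor throughout. The 3 tested were FOXA1, NR3C1 and PPARA. None passed at either dose in limma (4.33% of all tested genes at 20 mg/kg and 0.0584% at 4 mg/kg). None had an unadjusted p under 0.05 (24.2% and 17% of all tested genes). The median log2 change of the 3 was 0.26 at 20 mg/kg and 0.08 at 4 mg/kg. Among other complement genes none of 8 tested passed at either dose in limma (none at 20 mg/kg and 2 at 4 mg/kg had an unadjusted p under 0.05, against 24.2% and 17% of all tested genes), and 14 of 22 on the array were near the floor. C1R, a protease of the classical pathway, had 1226 and 1290 in vehicle tumours, 751 and 843 in 4 mg/kg tumours and 1340 and 1120 in 20 mg/kg tumours. Like CP and CFB it was below vehicle at 4 mg/kg (log2 -0.66, adjusted p = 0.166) and overlapped vehicle at 20 mg/kg (log2 -0.04, adjusted p = 0.938). The median of the list was -0.22 at 4 mg/kg and -0.10 at 20 mg/kg.

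Of 10 other tested serpins 4 fell at 20 mg/kg, where 2.07% of all tested genes fell, and none passed at 4 mg/kg in limma, where 0.0584% of all did. An unadjusted p under 0.05 was found for 5 at 20 mg/kg and 4 at 4 mg/kg, against 24.2% and 17% of all tested genes in either direction. Their median log2 change was -0.55 at 20 mg/kg and -0.34 at 4 mg/kg. SERPINB3 and SERPINB4 are near-identical squamous cell carcinoma antigens that inhibit proteases inside cells, and their probe sets may share signal. SERPINB3 had 3244 and 3451 in vehicle tumours, 1800 and 1810 in 4 mg/kg tumours and 1462 and 1379 in 20 mg/kg tumours (log2 -1.24 at 20 mg/kg, SE 0.05, adjusted p = 0.0108). Its second probe set gave -0.58 (adjusted p = 0.237), short of the threshold. SERPINB4 was at -1.66 (SE 0.16, adjusted p = 0.0344), SERPINB9, the granzyme B inhibitor, at -1.32 (SE 0.15, adjusted p = 0.0388) and the collagen chaperone SERPINH1 at -0.41 (SE 0.05, adjusted p = 0.0476). The mean of all probe sets gave smaller changes for TRIB1 (-0.43) and SERPINB9 (-0.44), still past the test. Among the lung and epithelial markers KRT18 fell at 20 mg/kg (log2 -1.54, adjusted p = 0.0416), 1 of 11 tested.

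For the called genes of these lists, IL6, TNFRSF1A, IL1RAP, TRIB1, TRIB2, SERPINB3, SERPINB4, SERPINB9, SERPINH1 and KRT18, the call at 20 mg/kg was lost without either 20 mg/kg array (adjusted p from 0.0697 to 0.191, limma), with the same direction. It was also lost without either 4 mg/kg array for IL6, TNFRSF1A, IL1RAP, TRIB2, SERPINB9, SERPINH1 and KRT18. Leaving out vehicle replicate 2 ended it for IL6, IL1RAP, TRIB1, TRIB2, SERPINB4, SERPINB9, SERPINH1 and KRT18, and vehicle replicate 1 for TRIB1, SERPINB4, SERPINB9 and KRT18. With no filter on low values 9 of the 10 lost it (adjusted p from 0.0754 to 0.142), all but SERPINB3. At 4 mg/kg TNFRSF1A, LIFR, SERPINB3 and SERPINH1 came to pass without vehicle replicate 1 (adjusted p from 0.0327 to 0.0499).

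**Figure D5:**
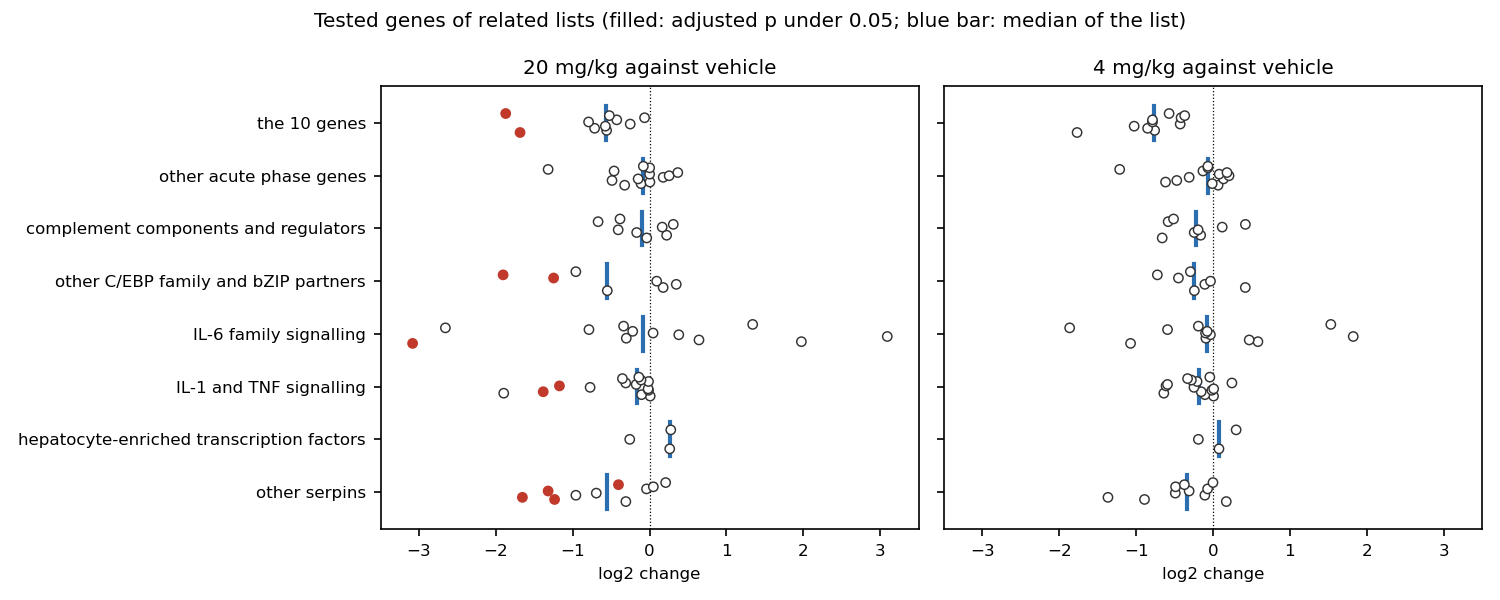
log2 change of each tested gene (points, horizontal axis) in the 10 genes and in 7 related lists, against vehicle, for 20 mg/kg (left) and for 4 mg/kg (right), with blue bars at the list medians and filled points past the adjusted threshold. The median of the 10 genes was -0.57 at 20 mg/kg and -0.77 at 4 mg/kg, and that of the other acute phase genes -0.08 and -0.07. All sets were chosen with earlier results of these data known, so the medians describe and do not test.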

How the data were processed

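RNA of NCI-H2228 tumours was labelled with biotin and read on 6 Affymetrix arrays of human probe sets, per the labels. The authors deposited 1 table of intensity on a linear scale. The submitters' processing notes name GCRMA and R 2.10.0. Whether all 6 arrays went through it as 1 set is not given in the sources used. GCRMA summarises probes by median polish, which can give equal values in several arrays. Intensities were converted to log2. Probe sets were named by GEO's annotation of the array, whose symbols may be out of date: 41097 matched 1 gene, 1801 several and 11777 none listed. Some genes are not analysed here. The brightest single-gene probe set stood for a gene. limma 3.58.1 in R 4.3.3 (lmFit, eBayes, two-sided) was fitted over all 6 arrays with 3 contrasts, 3 residual and 0.723 prior degrees of freedom. SE is limma's moderated SE, pooled over the groups, and 95% intervals are unadjusted. The fit was checked on simulated data without tied values, so the check does not cover the equal values of these arrays. The precision is limited by the number of arrays.

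The 10 genes and the related lists were chosen with earlier results of these data known, so counts over them describe and do not test. Named genes are the 10, up to 4 called genes of a related list, a fixed set of IL-6, C/EBP and complement genes, and the 5 genes most correlated with HP, FGB, CEBPB and CEBPD. Replicate numbers are shared between groups: deviations of same-numbered arrays correlated at 0.13, -0.12 and 0.15, so the numbers were not taken to pair the arrays. Alternatives were other scalings, log2(value + 16), other filters, other probe sets, the replicate block, the compared arrays alone, leaving out each array and, added after seeing the data, leaving out genes tied in all groups. A gene with only 1 probe set kept it under the next brightest and the mean. This holds for 5 of the 10 (HP, FGG, SERPINA3, C3 and CEBPB). No sequences were used here.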

Additional observations from a re-analysis of the deposited data

How the results depend on the processing

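Over 546 recomputed changes of the 10 genes 494 kept their direction and side of the threshold, 29 came to pass it, 15 no longer did and 8 changed sign. Called genes among the 10 at 20 mg/kg against vehicle were 2, but 5 after quantile normalization and 8 when arrays were centred. By the next brightest probe set 1 was called (6 of the 10 testable), HP, whose only probe set was used again there. The count was 0 with no filter, with the 4 compared arrays alone, with the replicate block, or without probe sets that may cross-hybridise (which leaves 4 of the 10). Leaving out an array gave 0 to 2. At 4 mg/kg they were 0, but 3 after quantile normalization, 8 with centred arrays and 0 to 2 with an array left out; between doses 0, but 1 after quantile normalization or centring, CEBPD. Where a group is left with 1 array, that array is assumed to vary like the others. With the replicate block 8 of the 10 called genes of the related lists also lost their call (adjusted p from 0.0508 to 0.0760), all but IL6 and SERPINB3. The causes were not tested. CEBPB passed at 20 mg/kg under either scaling, with the stricter filter, the mean of probe sets and without tied genes. It has only 1 probe set, so all of these but the scalings left its values unchanged and altered only the other genes tested.

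Over all genes 445 were called at 20 mg/kg: 1598 after quantile normalization, 1958 when arrays were centred, 57 with no filter, 207 with the next brightest probe set, 282 without probe sets that may cross-hybridise, 93 with the replicate block, 136 with 4 arrays, 819 without tied genes and 5 to 802 with an array left out. At 4 mg/kg 6 were: 111, 766 and 3 under the first 3 of these, 0 to 475 with an array left out, and 0 with log2(value + 16), the stricter filter, the next brightest or mean probe set, single probe sets, the replicate block, 4 arrays or without tied genes; 50% were lower, but 35.1% and 32.5% under the scalings. Between doses 38 were: 330, 494, 8 and 20 under the first 4, 0 with the replicate block or 4 arrays, 77 without tied genes and 0 to 218 with an array left out; 65.8% were lower, but 53% and 54% under the scalings.

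Signs turned between doses for SERPINA3 (0.056 under quantile normalization, 0.060 centred, -0.16 to 0.15 with an array left out), FGB (-0.024 to 0.29) and HP (-0.024 to 0.19), and at 20 mg/kg for CFB (-0.22 to 0.085). They turned for CEBPG with its next brightest probe set (0.22 at 20 mg/kg, 0.18 at 4 mg/kg) and without vehicle replicate 2 at 4 mg/kg (-0.53 to 0.045 with an array left out), for IL1RAP with that set (0.69 and 1.15) or the mean of sets at 4 mg/kg (0.50), for IL6ST with the mean of sets at 4 mg/kg (-0.018), and with centred arrays for CP at 20 mg/kg (-0.028) and LCN2 at 4 mg/kg (-0.032). With an array left out C1R (-0.17 to 0.092) and CP (-0.062 to 0.070) turned at 20 mg/kg, and LCN2 (-0.0094 to 0.14) and STAT3 (-0.22 to 0.065) at 4 mg/kg.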
